A study of Mus musculus with 14 samples.

Results

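The immunoglobulin-type adhesion molecules of neurons were examined in the *Taf9b* RNA-seq and ChIP-seq data through 9 genes, *L1cam*, *Chl1*, *Nfasc*, *Nrcam*, *Ncam1*, *Ncam2*, *Cntn1*, *Cntn2* and *Dscam*. They were picked by symbol through the RefSeq identifiers of the RNA-seq tables, and all 9 were found among the 23152 loci. Every value is an FPKM, a count of fragments corrected for transcript length and library size, so levels can be set side by side between genes. TAF9B is a TBP-associated core promoter factor, and the study asked whether it acts on neuronal genes as mouse embryonic stem (ES) cells become motor neurons and in newborn tissue.

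The 11 RNA-seq libraries came from C57BL/6 mice or cells, with 1 library per condition. ES cells, embryoid bodies (EBs) at days 2, 4 and 6 of differentiation and newborn lumbar spinal column each had a library labelled WT, with the genotype wild type and the line JM8 clone, and a library labelled KO, with the genotype TAF9B -/- and the line Taf9b_BG10 clone. Newborn spinal cord had a WT library only. EBs were driven toward motor neurons with retinoic acid and the smoothened agonist SAG, which gives cultures enriched in motor neurons but not made of them alone. In the KO allele a LacZ-Neo cassette stands in place of the coding exons of the X-linked gene, the KO cells are 1 clone, and the tissue libraries carry the same line names. The spinal column was dissected whole, with its vertebrae and surrounding tissue, from littermates whose number per library is not given in the sources used here. The ChIP-seq data are peak lists for TAF9B and RNA POL2 from EB motor neurons of another WT line, HBG3 clone, which carries a GFP reporter for motor neurons.

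*Taf9b* itself was read first, and in culture its FPKM was higher in the libraries labelled KO. Its level was 0.537 FPKM in the ES library labelled WT and 3.06 FPKM in that labelled KO. The level under the KO label was also the higher one at day 2 (4.08 against 0.516 FPKM), day 4 (4.27 against 1.96 FPKM) and day 6 (4.01 against 1.37 FPKM). In spinal column it was 6.65 FPKM in the library labelled WT and 3.31 FPKM in that labelled KO. The FPKM is 1 value for the whole locus and does not separate the replaced coding exons from the rest, and neither the source of these reads nor an exchange of the culture labels was tested. Other genes that differ between the labels in culture, such as motor neuron markers at day 6 (summed 43.3 FPKM under the WT label and 2.86 under the KO label), are given with the results. Directions below are therefore given by label. With 1 library per condition there is no spread between replicates and no test of a condition, so a gene is counted as different only when its FPKM differed by more than 2-fold and one library of the pair or both exceeded 1 FPKM.

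The L1 family, to which L1CAM, CHL1, neurofascin and NrCAM belong, spans the membrane and carries immunoglobulin and fibronectin domains outside the cell and an ankyrin-binding stretch inside it. These proteins guide and bundle axons, and neurofascin and NrCAM also anchor sodium channel clusters at the axon initial segment and the nodes of Ranvier. NCAM1 and NCAM2 join neighbouring neurons by homophilic binding, contactins are held to the membrane by a lipid anchor and pair with L1 family members, and DSCAM serves in the self-recognition of neurites.

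On mm9 the L1 family genes lie at chrX:71099119-71126173 (*L1cam*, minus strand), chr6:103460870-103683029 (*Chl1*, plus strand), chr1:134461267-134638374 (*Nfasc*, minus strand) and chr12:45429872-45702833 (*Nrcam*, plus strand). *Ncam1* is at chr9:49310251-49607174 on the minus strand and *Ncam2* at chr16:81200942-81624532 on the plus strand. *Cntn1* is at chr15:91881596-92172398 on the plus strand, *Cntn2* at chr1:134406002-134439517 on the minus strand and *Dscam* at chr16:96813687-97392342 on the minus strand. *Cntn2* and *Nfasc* are neighbours on the same strand, 21.7 kb apart. The locus of *Nfasc* also holds the predicted gene *Gm10538* and that of *Ncam1* the predicted gene *Gm11149*, whose reads the counting could split. The loci span 27.1 kb for *L1cam* to 578.7 kb for *Dscam*, and their longest transcripts run from 4893 bases for *Ncam2* to 9778 bases for *Nfasc*.

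TAF9B peaks lay at the start sites of *Cntn2*, *Ncam1*, *Cntn1* and *Dscam*. The 200 bases just upstream of the outermost annotated start of each are shown, with those of *L1cam*, which had no peak there, for comparison. In *Ncam1* the peak reaches into this window, but its midpoint lies 16 bp inside the locus, upstream of a second start. Each is read 5′ to 3′ along the strand of its gene from the NCBIM37 (mm9) genome. Capitals mark hits to any of 5 motifs searched on both strands, which do not overlap one another: the E-box CAGCTG, a second E-box of the letters CAGATG, the homeodomain core TAATTA, the GC box GGGCGG and the TATA box, searched as TATAAA.
Cntn2, chr1:134439518-134439717, minus strand: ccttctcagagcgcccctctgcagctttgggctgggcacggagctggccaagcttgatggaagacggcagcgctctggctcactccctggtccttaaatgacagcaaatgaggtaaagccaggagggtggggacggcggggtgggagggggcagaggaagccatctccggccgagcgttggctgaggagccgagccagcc
Ncam1, chr9:49607175-49607374, minus strand: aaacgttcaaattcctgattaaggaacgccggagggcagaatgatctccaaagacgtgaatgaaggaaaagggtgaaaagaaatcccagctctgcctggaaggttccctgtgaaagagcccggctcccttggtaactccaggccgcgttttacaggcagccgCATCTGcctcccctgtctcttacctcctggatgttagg
Cntn1, chr15:91881396-91881595, plus strand: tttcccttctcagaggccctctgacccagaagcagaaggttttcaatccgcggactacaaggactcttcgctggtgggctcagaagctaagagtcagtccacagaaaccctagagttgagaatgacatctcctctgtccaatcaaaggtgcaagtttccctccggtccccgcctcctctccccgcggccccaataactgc
Dscam, chr16:97392360-97392559, minus strand: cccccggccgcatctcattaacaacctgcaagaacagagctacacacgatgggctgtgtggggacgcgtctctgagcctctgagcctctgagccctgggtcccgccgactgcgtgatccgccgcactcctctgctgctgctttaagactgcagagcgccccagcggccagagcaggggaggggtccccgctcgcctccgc
L1cam, chrX:71126174-71126373, minus strand: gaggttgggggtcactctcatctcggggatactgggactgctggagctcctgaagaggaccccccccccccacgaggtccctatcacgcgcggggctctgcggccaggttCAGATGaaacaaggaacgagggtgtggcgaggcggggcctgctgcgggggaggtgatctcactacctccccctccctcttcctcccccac
The *Ncam1* and *L1cam* windows each hold 1 hit to CAGATG, a motif found in 9.98% of the 200-base windows upstream of 22236 GENCODE protein-coding genes. The windows of *Cntn2*, *Cntn1* and *Dscam* hold none of the 5 motifs. TAATTA, in 3.46% of the windows of all genes, GGGCGG, in 38.6%, and TATAAA are in none of these 5. GC content was 65.0% for *Cntn2*, 66.5% for *Dscam* and for *L1cam*, 55.0% for *Cntn1* and 52.5% for *Ncam1*, against a median of 55.5% over all genes.

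Away from start sites, the TAF9B peaks with the highest scores at these genes lay between *Cntn2* and *Nfasc* and in an intron of *Nfasc*. Their central 200 bases are shown on the minus strand, the strand of both genes, with the same motifs in capitals.
Cntn2-Nfasc interval, chr1:134459077-134459276, minus strand: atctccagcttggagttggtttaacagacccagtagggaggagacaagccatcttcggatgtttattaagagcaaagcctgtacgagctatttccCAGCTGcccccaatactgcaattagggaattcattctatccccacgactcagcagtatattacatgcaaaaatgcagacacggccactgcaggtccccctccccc
Nfasc intron, chr1:134635844-134636043, minus strand: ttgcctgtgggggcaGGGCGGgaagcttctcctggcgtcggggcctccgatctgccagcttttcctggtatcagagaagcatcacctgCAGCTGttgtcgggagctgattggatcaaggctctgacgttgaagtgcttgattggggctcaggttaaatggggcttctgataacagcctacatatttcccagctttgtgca
Each holds 1 CAGCTG, an E-box of the kind that basic helix-loop-helix factors bind, which is in 17.1% of the central 200 bases of 10402 TAF9B peaks. The *Nfasc* intron window also holds 1 GGGCGG, which is in 30.9% of those peaks. The central windows of the strongest intronic peaks of *Ncam1* and *Dscam*, the other 2 read, hold 0 CAGCTG and 1 GGGCGG each. Neither window shown overlaps an exon of the GENCODE annotation.

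In the libraries labelled WT, 6 of the 9 genes were above 1 FPKM and more than 2-fold higher at EB day 6 than in ES cells, where 23.1% of the 13048 genes above 1 FPKM were higher and 15.1% lower by that much. *L1cam*, *Nrcam*, *Cntn1* and *Cntn2* were under 1 FPKM in ES cells, so these 4 entered the count only through day 6 and had to be higher, and *Nfasc* and *Ncam1* were the 2 above 1 FPKM at both steps. Both tables were normalized separately. *Cntn2*, which encodes the transient axonal glycoprotein TAG-1 of young commissural and motor axons, went from 0.671 FPKM in ES cells through 0.563 and 0.213 FPKM at days 2 and 4 to 33.9 FPKM at day 6, with 4.29 FPKM in spinal column and 6.47 in spinal cord. It was thus the member with the highest level at day 6 and that with the lowest in spinal cord. *Ncam1* had 3.02 FPKM in ES cells, 0.543, 5.05 and 25.4 FPKM over days 2, 4 and 6, 57.9 FPKM in spinal column and 75.1 in spinal cord. It had the highest level of the 9 in ES cells and in both tissues, with a low at day 2 that the library labelled KO shared (0.766 FPKM).

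*L1cam* was below 1 FPKM in the libraries labelled WT up to day 4, at 0.606, 0.922 and 0.872 FPKM, and reached 5.18 FPKM at day 6. *Nfasc* climbed in small steps from 1.11 FPKM in ES cells to 1.66, 2.31 and 3.73 FPKM at days 2, 4 and 6. *Nrcam* was at 0.864 and 0.74 FPKM in ES cells and at day 2 and then at 20.3 FPKM at day 4 and 4.72 FPKM at day 6. Day 4 is the step the labels call neuronal progenitors, and *Nrcam* was the only one of the 9 with its highest level there, above even the 15.7 FPKM of spinal cord, a table normalized separately.

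*Cntn1*, the contactin of nodes and paranodes, stood at 0.0655, 0.136, 0.229 and 1.34 FPKM over the same steps. *Dscam*, *Chl1* and *Ncam2* did not reach 1 FPKM in any culture library, with highest values of 0.298, 0.0974 and 0.064 FPKM, all at day 4. The lowest values of *Ncam2*, 0.0121 FPKM in ES cells and 0.00784 FPKM at day 2, correspond to about 3.38 and 1.4 fragments. This estimate takes as 1 fragment the FPKM times transcript length at which the low values of genes of 1 transcript pile up in a library. Counting error alone is therefore large for *Ncam2*, and for *Chl1* with about 3.5 fragments at day 2 under the WT label. *Dscam* had about 11.9 fragments at day 2 and 62 at day 6 under that label.

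**Figure D1:**
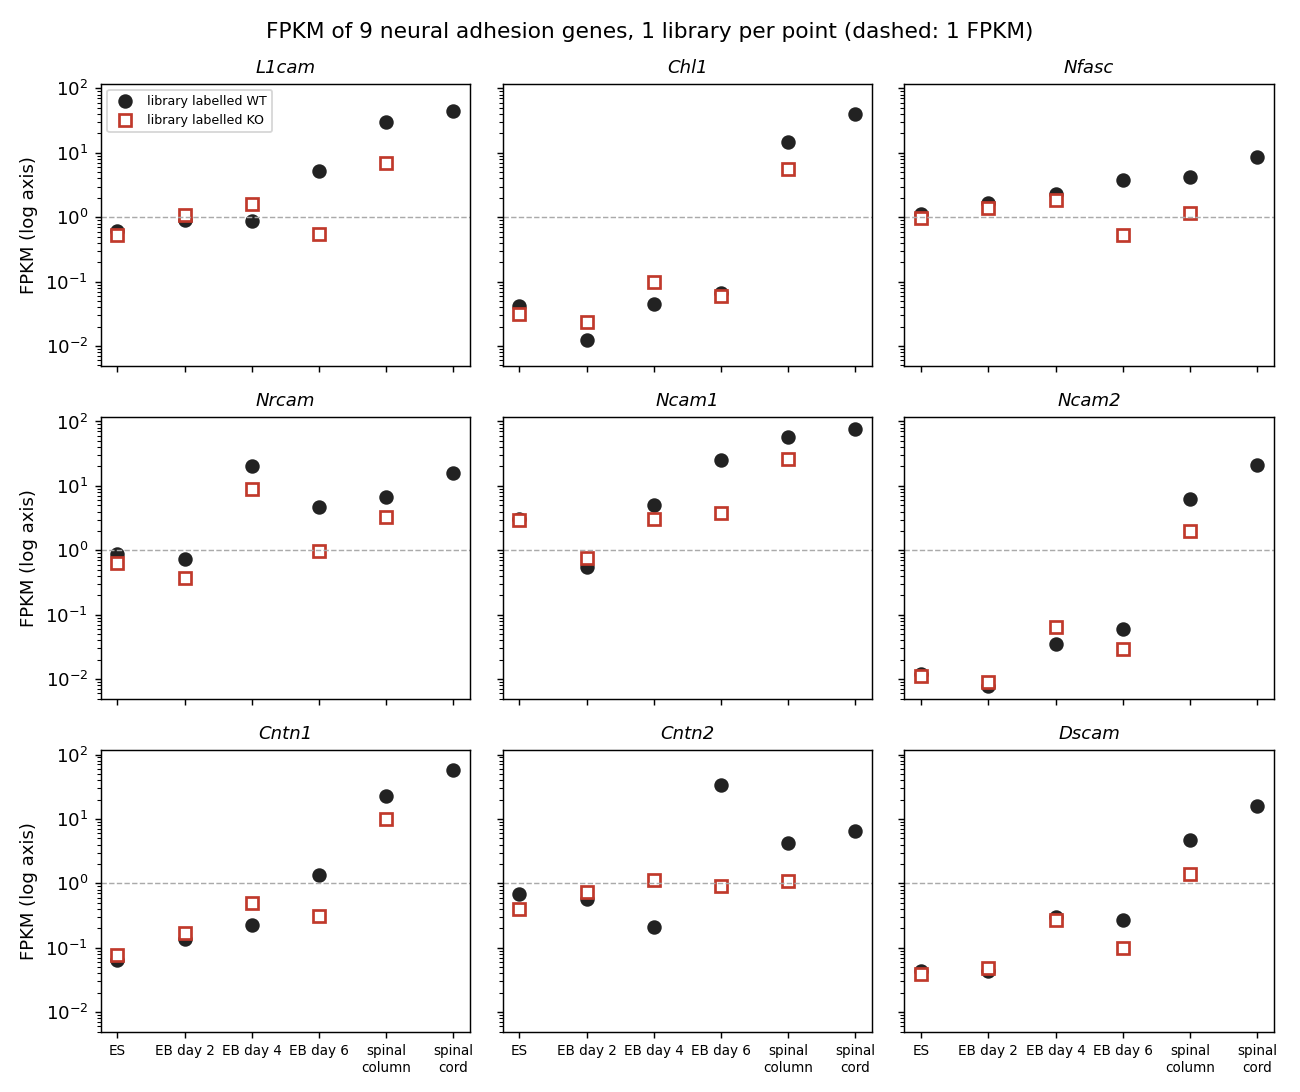
FPKM (log axis) of each of the 9 genes in ES cells, EBs and newborn tissue, with filled circles for libraries labelled WT, open squares for those labelled KO and 1 library per point. At day 6 the squares of *L1cam*, *Nfasc*, *Nrcam*, *Ncam1*, *Cntn1* and *Cntn2* sit more than 2-fold below circles above 1 FPKM, those of *Dscam* and *Ncam2* do so with both values under 1 FPKM, and in spinal column all 9 do.

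In newborn spinal cord all 9 genes were above 1 FPKM and more than 2-fold higher than in ES cells of the same table, where 30.4% of 14390 genes were higher and 35.7% lower. Of the 9, 7 were under 1 FPKM in ES cells and so could enter only as higher, and *Nfasc* (1.21 FPKM in ES cells) and *Ncam1* (3.29) were the 2 above 1 FPKM in both libraries. In falling order of level they were *Ncam1* (75.1 FPKM), *Cntn1* (57.3), *L1cam* (44.4), *Chl1* (40.2), *Ncam2* (21.1), *Dscam* (15.9), *Nrcam* (15.7), *Nfasc* (8.77) and *Cntn2* (6.47). *Dscam* and *Nrcam* were nearly level, and with 1 library no spread says which neighbours in this order differ. The genes that were near silent in culture, *Chl1*, *Ncam2* and *Dscam*, exceeded *Nfasc* and *Cntn2* in the cord. The smallest difference over ES cells was that of *Nfasc* (log2 2.86), followed by *Cntn2* (3.15) and *Nrcam* (4.06), while *Chl1* and *Cntn1* were 9.80 and 9.65 higher on the log2 scale from ES levels of 0.045 and 0.0714 FPKM. With 1 FPKM added to both values these were 5.30 and 5.77. No difference is given for *Ncam2*, whose ES level of 0.0132 FPKM in this table rests on a few fragments. The median of all genes was shifted by -0.26 on the same scale.

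The comparison of the libraries labelled KO and WT asked what the loss of TAF9B changes at each step. In ES cells 0 of the 9 genes differed by more than 2-fold, against 0.590% of 12032 genes lower and 0.540% higher, and only *Nfasc* and *Ncam1* were above 1 FPKM. Their log2 ratios, KO over WT, were -0.17 (1.11 and 0.987 FPKM) and -0.05 (3.02 and 2.92 FPKM). At day 2 again 0 of 9 passed, against 1.40% lower and 1.19% higher. The largest ratio at day 2 among those above 1 FPKM was that of *Nfasc* at -0.26 (1.66 and 1.39 FPKM), and *Nrcam*, below 1 FPKM in both libraries, was at 0.74 and 0.369 FPKM.

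At day 4 the members did not move one way. *Nrcam* had 20.3 FPKM under the WT label and 9.04 FPKM under the KO label, a log2 ratio of -1.17, and was the 1 member counted as lower, against 4.46% of 12563 genes. *Cntn2* was at 0.213 and 1.11 FPKM, a log2 ratio of 2.38, and was the 1 member counted as higher, against 12.1%. It exceeded 1 FPKM only under the KO label, so it could be counted only as higher. With 1 FPKM added to both values its ratio was 0.80, below 2-fold. *L1cam* (0.872 and 1.6 FPKM) was higher by less than 2-fold and *Ncam1* (5.05 and 3.06 FPKM) and *Nfasc* (2.31 and 1.83 FPKM) were lower by less than 2-fold. In the same pair of libraries the 5 neural progenitor markers, such as *Pax6* and *Hes5*, were all more than 2-fold lower in the one labelled KO (summed 301 and 47.7 FPKM), and the 5 ES cell markers all more than 2-fold higher (summed 30.1 and 180 FPKM). Their part in the ratios of *Nrcam* and *Cntn2* was not tested.

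At day 6 the library labelled KO held less RNA of 6 members by more than 2-fold, and of 0 members more. Over all 13006 genes 9.93% were lower and 10.5% higher by that much. *Cntn2* differed most, with 33.9 FPKM under the WT label and 0.909 FPKM under the KO label, 37.3-fold lower. *L1cam* was at 5.18 and 0.553 FPKM, 9.37-fold lower. *Nfasc* (3.73 and 0.54 FPKM) was 6.91-fold lower and *Ncam1* (25.4 and 3.77 FPKM) 6.72-fold lower. Both neighbours on chromosome 1 are among them.

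*Nrcam* (4.72 and 0.99 FPKM) was 4.77-fold lower and *Cntn1* (1.34 and 0.307 FPKM) 4.36-fold lower. The KO-labelled levels of *L1cam*, *Nfasc*, *Nrcam*, *Cntn1* and *Cntn2* were all under 1 FPKM, so these 5 entered the count only through the library labelled WT and had to differ in this direction, and *Ncam1* alone was above 1 FPKM in both. The remaining members were at or under 1 FPKM in both libraries, with *Dscam* at 0.269 and 0.0982 FPKM, *Ncam2* at 0.061 and 0.0295 FPKM and *Chl1* at 0.0665 and 0.0589 FPKM. Within the KO-labelled series itself *Ncam1* was the only member above 1 FPKM in ES cells or at day 6, at 2.92 and 3.77 FPKM, and it did not pass 2-fold, where 16.9% of 12897 genes were higher and 9.55% lower at day 6.

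General neuron genes and markers of other cell types differed in the same pair of libraries. All 12 genes of a general neuron list were more than 2-fold lower under the KO label. Over all genes 9.93% were lower and 10.5% higher by that much. *Rbfox3*, *Elavl4*, *Dcx*, *Syt1*, *Elavl3* and *Snap25* were under 1 FPKM in the library labelled KO, so they could be counted only as lower. The ratios of the 12 ran from *Stmn2* (180 and 63.1 FPKM) to *Elavl4* (25.6 and 0.552 FPKM). Their median log2 ratio was -4.09 against -0.003 for all genes. *Cntn2* was the only member with a lower ratio than that median. The 5 motor neuron markers were all lower (with *Chat* listed at 0 in the library labelled KO), as were the 5 progenitor markers (summed 109 and 13.8 FPKM), while all 5 ES cell markers were higher (summed 342 and 886 FPKM), 4 of them by more than 2-fold. Of the motor neuron markers only *Mnx1* (14.3 and 1.62 FPKM) exceeded 1 FPKM under both labels, and of the progenitor markers all but *Hes5* did. In bulk RNA, fewer neurons and less adhesion RNA per neuron cannot be told apart, and the part of cell make-up in the members' ratios was not tested.

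**Figure D2:**
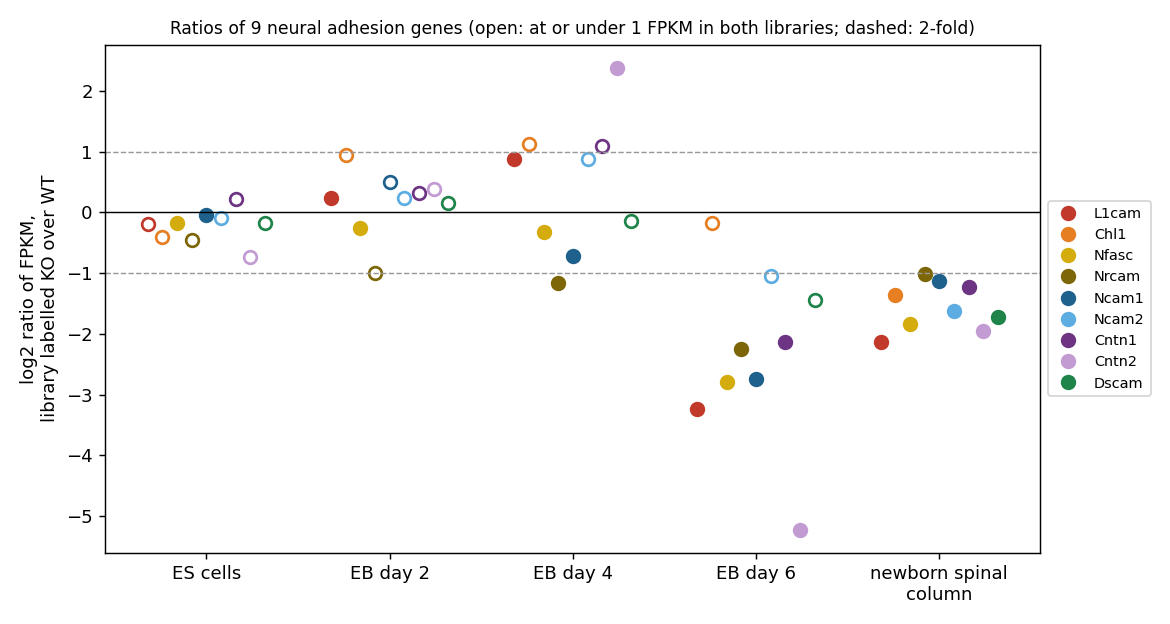
Log2 ratio of FPKM, library labelled KO over WT, for the 9 genes in the 5 comparisons, filled where at least 1 library exceeded 1 FPKM and open otherwise, with dashed lines at 2-fold. The points straddle 0 up to day 4, where *Cntn2* is at 2.38 and *Nrcam* at -1.17, and lie below 0 at day 6 (*Cntn2* at -5.22) and in spinal column (-2.13 to -1.02).

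In newborn spinal column all 9 members were above 1 FPKM in both libraries and all 9 were more than 2-fold lower in the one labelled KO, against 8.54% of 14255 genes lower and 9.05% higher. *L1cam* had 30.2 FPKM under the WT label and 6.91 FPKM under the KO label, 4.37-fold lower and the lowest ratio of the 9. *Cntn2* (4.29 and 1.1 FPKM) was 3.89-fold lower and *Nfasc* (4.17 and 1.16 FPKM) 3.59-fold lower. *Dscam* (4.67 and 1.41 FPKM) was 3.32-fold lower and *Ncam2* (6.16 and 2.01 FPKM) 3.06-fold lower. The largest ratios therefore came from members of low as well as high level.

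*Chl1*, the close homologue of L1, was at 14.7 and 5.7 FPKM, 2.57-fold lower. *Cntn1* (23 and 9.81 FPKM) was 2.35-fold lower and *Ncam1* (57.9 and 26.5 FPKM) 2.18-fold lower. *Nrcam* (6.61 and 3.26 FPKM) lay just past the threshold at 2.03-fold, and with 1 FPKM added to both values its log2 ratio was -0.84, the only one of the 9 that then fell short of 2-fold.

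In spinal column the ratio of a gene also moved with the length of its transcript, which touches all 9. Genes with transcripts of up to 1000 bases had a median log2 ratio of 0.88 and those above 10000 bases one of -1.10. In EB day 6 the medians of the same length classes stayed between -0.11 and 0.08. Each member was therefore set against the 500 genes nearest to it in transcript length, whose median ratios were -0.28 for the shortest window to -0.88 for the longest and of which 11% to 39.4% were more than 2-fold lower. All 9 members lay below the median of their window, also with 200 or 1000 genes in it, with genomic span in place of transcript length or with 1 FPKM added.

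Relative to that median, the log2 ratio was -1.78 for *L1cam*, -1.33 for *Ncam2*, -1.08 for *Cntn2* and -1.03 for *Dscam*, and these 4 remained more than 2-fold lower. That count was 5 with windows of 1000 genes and 2 with 1 FPKM added to all values. *Nfasc* fell short of 2-fold at -0.96, as did *Cntn1* at -0.80, *Chl1* at -0.64, *Ncam1* at -0.57 and *Nrcam* at -0.31. *L1cam*, with a transcript of 5283 bases, stood farthest from its window, in which 11% of genes were more than 2-fold lower. *Nrcam*, at 7584 bases, stood nearest to its window, in which 27.2% were. RNA quality is not given in the sources used here, and its part in the trend with length was not tested.

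**Figure D3:**
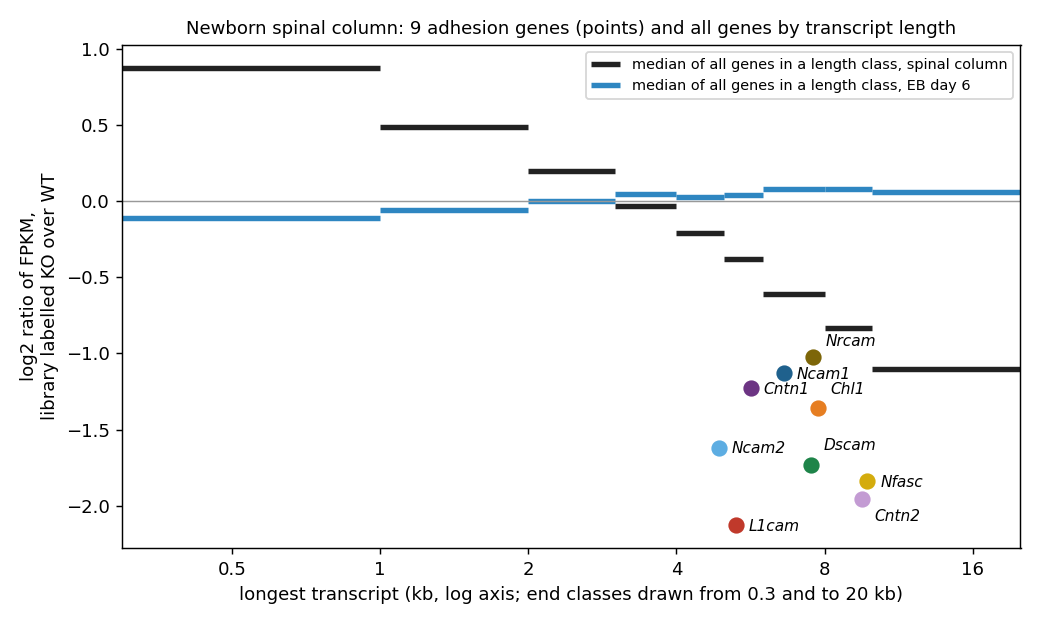
Log2 ratio of FPKM, library labelled KO over WT, against the longest transcript (kb, log axis), with points for the 9 genes in spinal column and bars for the median of all genes above 1 FPKM in each length class in spinal column (black) and at EB day 6 (blue). The black medians run from 0.88 to -1.10, the blue ones stay near 0, and the 9 points lie below the black bars of their lengths.

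Neuron genes and other tissues were measured in the same spinal column pair. All 12 general neuron genes had lower FPKM in the library labelled KO, 8 of them by more than 2-fold. Over all genes 8.54% were lower and 9.05% higher by that much. The median log2 ratio of the 12 was -1.09 against 0.06 for all genes, from *Stmn2* (236 and 170 FPKM) to *Nefm* (110 and 30 FPKM). That list was also set against genes of like length, where its 11 genes with a transcript length had a median difference of -1.06 and the 9 members one of -0.96. Of the 5 motor neuron markers only *Isl1* (7.57 and 5.12 FPKM) and *Isl2* (19.7 and 7.46 FPKM) were above 1 FPKM, and *Mnx1* was at 0.353 FPKM and listed at 0. Astrocyte and radial glia markers were lower in 4 of 5, with a median log2 ratio of -0.59, from *Fabp7* (136 and 150 FPKM) to *Aldh1l1* (10.8 and 4.62 FPKM), and 1 of them passed 2-fold. Myelinating glia markers were lower in 5 of 6 (median -0.28, summed 391 and 370 FPKM) and cartilage and bone markers in 3 of 6 (median -0.33, summed 1710 and 1030 FPKM), with 0 past 2-fold in either list. Of the skeletal muscle markers, *Tnnt3* (2930 and 4490 FPKM), *Des* (1050 and 1420 FPKM) and *Myog* (92.8 and 116 FPKM) were higher and *Myh3* (420 and 218 FPKM) lower. *Ckm* was at 3410 FPKM under the WT label and listed at 0 under the KO label, and *Acta1* was listed at 0 in both, so no sum is given for muscle. The 2 erythroid markers in the tables were both higher (summed 17.9 and 32.2 FPKM). Against genes of like length, all 5 astrocyte and radial glia markers were below, with a median difference of -0.67. Of the 6 myelinating glia markers 5 were below (-0.43), as were 5 of the 6 cartilage and bone markers (-0.32). Of 5 skeletal muscle markers 4 were below (-0.18), with *Ckm* counted. The 2 erythroid markers were both above (0.83). By more than 2-fold this was 1 each of the astrocyte, myelinating glia and muscle markers. The part of tissue make-up in the members' ratios was not tested.

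Other immunoglobulin adhesion genes of neurons, 19 in the tables, went both ways at day 6. Of the 7 above 1 FPKM, 3 were more than 2-fold lower in the library labelled KO, *Cadm3* (5.1 and 0.352 FPKM), *Cadm4* (39.6 and 7.65 FPKM) and *Cadm1* (32.3 and 11.9 FPKM), which encode synaptic and axon-glia adhesion proteins. The share of all genes lower by that much was 9.93%, and 10.5% were higher. Of these 7, 2 were more than 2-fold higher, *Alcam* (1.98 and 4.28 FPKM) and *Dscaml1* (0.57 and 1.2 FPKM), the relative of *Dscam*. *Dscaml1* exceeded 1 FPKM only under the KO label and could be counted only as higher. *Cadm3* exceeded it only under the WT label and could be counted only as lower. In spinal column all 17 above 1 FPKM were lower and 7 of them by more than 2-fold, against 8.54% of all genes, from *Thy1* (60.7 and 48.4 FPKM) to *Mdga2* (1.61 and 0.568 FPKM), with a median log2 ratio of -0.93 against 0.06 for all genes. *Mdga2*, *Dscaml1* and *Sdk2* exceeded 1 FPKM only under the WT label in spinal column, so they could be counted only as lower. Against genes of like length the median difference of the 17 was -0.55, and 1 of them was more than 2-fold below.

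Ankyrins and spectrins tie L1 family proteins to the membrane skeleton, and contactin-associated proteins pair with contactins. At day 6 the lowest ratio among such genes above 1 FPKM was that of *Cntnap2* (2.1 and 0.606 FPKM), more than 2-fold lower in the library labelled KO, and the highest was that of *Sptbn4* (1.27 and 3.68 FPKM), more than 2-fold higher. *Ank3*, which encodes ankyrin-G of the axon initial segment, was at 5.37 and 3.03 FPKM. The list of 13 also holds *Ezr*, *Rdx* and *Msn*, which are neither ankyrins, spectrins nor contactin-associated proteins. In spinal column 7 of the 13 were more than 2-fold lower, against 8.54% of all genes. *Ezr* (16.2 and 17.4 FPKM), *Rdx* (34.1 and 36 FPKM) and *Msn* (41.6 and 38.3 FPKM) were not among them. Several have long transcripts, a class with lower ratios here, and only 9 of the 13 have a transcript length, so the whole list could not be set against genes of like length. Those 9 include *Ezr*, *Rdx* and *Msn*. They had a median log2 ratio of -0.83 and a median difference of -0.13 from genes of like length. Of the 9, 6 were below genes of like length, 2 of these by more than 2-fold. Among the 7 of 13 were *Cntnap1* (7.81 and 2.2 FPKM), *Ank2* (37 and 11.6 FPKM) and *Sptbn4* (2.31 and 0.775 FPKM). *Sptbn4* exceeded 1 FPKM only under the WT label there and could be counted only as lower. The median log2 ratio was -1.26, and *Ank1* was the highest (18.6 and 22.7 FPKM).

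Extracellular partners and co-receptors of the family went both ways at day 6, with 3 of the 6 above 1 FPKM more than 2-fold lower and 1 more than 2-fold higher, against 9.93% and 10.5% of all genes. *Ncan*, the proteoglycan neurocan that binds L1CAM and NCAM1, was at 3.85 and 0.661 FPKM, and *Tnc*, the matrix protein tenascin-C, at 1.34 and 5.64 FPKM. *Ncan* exceeded 1 FPKM only under the WT label, so it could be counted only as lower. In spinal column 3 of 10 were more than 2-fold lower, against 8.54% of all genes. The lowest ratio was that of *Tnr*, tenascin-R, at 1.23 and 0.156 FPKM. *Tnr* exceeded 1 FPKM only under the WT label, so it could be counted only as lower. The highest ratio was that of *Fgfr1* at 33.1 and 24.8 FPKM. The median log2 ratio was -0.77, or a median difference of -0.27 from genes of like length.

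Across the 11 libraries the 9 members did not share one pattern. Pearson's r of log2(FPKM + 1), given as a description since the libraries share tables, genotypes and the gap between culture and tissue, ranged from 0.33 (*Nrcam* with *Cntn2*) to 0.99 over the 36 pairs, with a median of 0.76. *Chl1*, *Ncam2*, *Cntn1* and *Dscam*, which are low in culture and high in tissue, had r of 0.97 to 0.99 with each other. *Cntn2* had r of 0.36 to 0.47 with these 4 and was closest, among 15810 genes, to *Mir124a-1hg*, the host of a neuronal microRNA (0.975), *Lhx3*, a motor neuron transcription factor (0.968), and *Pcdhb3* (0.962). *Nrcam* was closest to *Rfx4* (0.990), *Fhod3* (0.982) and *Vit* (0.976).

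The genes closest to *L1cam* were *Kif5a*, a neuronal kinesin (0.995), *Sez6l2* and *Pcsk2* (both 0.992). *Nfasc* was closest to *Mapre2* (0.971), with *Prr36* (0.951) also near, and *Ncam1* was closest to *C2cd2l* (0.988), *Trib2* (0.985) and *Cadm4* (0.981). The closest genes to *Cntn1* were *Esrrg*, *Apba1* and *Rab3c* (0.997 to 0.999), to *Dscam* *Cacnb4*, *Sorcs3* and *Syn3* (0.998 to 0.999), to *Chl1* *Sidt1*, *Rph3a* and *Adamts16* (0.999 or higher) and to *Ncam2* *Chrm2*, *Slitrk3* and *Ppfia2* (0.999 or higher). The last 4 members have low values in culture, so r there mostly sets the 3 tissue libraries against the others.

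TAF9B peaks of EB motor neurons had their midpoint within 500 bp of a start site in 4 of the 9 genes, against 30.1% of 11304 genes above 1 FPKM at EB day 6, and within 5 kb in 6 of 9 against 38.1%. *Chl1*, *Ncam2* and *Dscam* were below 1 FPKM there, and of the 6 members above it 3 had a TAF9B peak within 500 bp and 4 within 5 kb. The peak of *Cntn1* at chr15:91881422-91881735 had the highest score of all at these genes (224), 18 bp upstream of the start, and overlapped an RNA POL2 peak. That of *Ncam1* at chr9:49606978-49607338 (202) lay 131 bp upstream of the nearest coding start, and that of *Cntn2* at chr1:134439386-134439693 (168) lay 22 bp upstream. The peak of *Dscam* at chr16:97392336-97392547 (78.0) lay 82 bp upstream and also overlapped an RNA POL2 peak.

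RNA POL2 peaks lay within 500 bp of a start only in *Cntn1* and *Dscam*, 2 of 9 against 53.1% of genes, and within 5 kb in 5 of 9 against 58.6%. Of the 6 members above 1 FPKM at day 6 these were 1 and 3. *Nrcam* missed the limit, with the midpoint of a peak of 1491 bp 573 bp into the gene. *Cntn2*, the member with the highest FPKM at day 6, had no RNA POL2 peak within 50 kb of its locus, and *L1cam*, *Nfasc* and *Ncam2* had none either. The peak lists and the RNA-seq came from different cell lines, and the ChIP cultures were differentiated for longer than 6 days, so the time points differ as well.

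Inside the locus, 7 of 9 genes held a TAF9B peak, against 27.8% of 7573 loci between the shortest and the longest member span. Since long loci hold more peaks, the share among the 500 loci nearest in span is given for each member, and it was 14.4% for *Cntn2* and 16.8% for *L1cam* but 43.4% for *Nfasc* and 48.6% to 56.0% for the 6 longer ones. No test of the count of 7 was made. RNA POL2 peaks lay inside 4 of the 9, against 26.9% of the 7573 loci. Of the 17 distinct TAF9B peaks inside members, 1 was in an exon, of *Dscam*.

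*L1cam* had neither a start-site nor an intronic TAF9B peak, and its nearest peak, at chrX:71167195-71167377 (score 80.3), was 41.1 kb upstream. *Nfasc* had 3 intronic peaks, the strongest at chr1:134635838-134636051 (161), 2.43 kb into the gene, the one whose central bases are shown. The peak between *Cntn2* and *Nfasc* at chr1:134458974-134459381 (186) lay 19.7 kb upstream of *Cntn2*. *Ncam1* had a further intronic peak at chr9:49605206-49605543 (155) that overlapped RNA POL2, and *Dscam* one at chr16:97387471-97387725 (146), 4.76 kb into the gene.

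*Chl1* had 1 weak TAF9B peak at chr6:103462230-103462444 (57.9), 1.47 kb into the gene and overlapping an RNA POL2 peak, although its RNA was at 0.0665 FPKM at day 6. *Nrcam* had intronic peaks with scores of 88.0 and 70.7, and *Ncam2* had no peak of either kind within 50 kb. The members with and without a TAF9B peak at the start thus both include genes that were more than 2-fold lower in the library labelled KO at day 6.

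**Figure D4:**
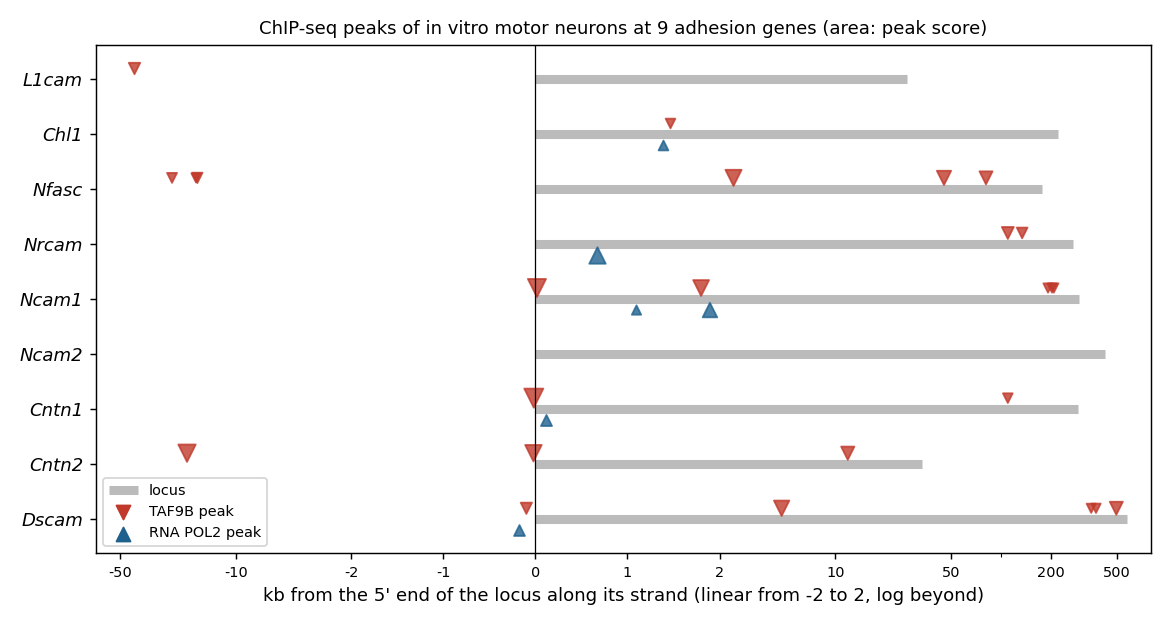
TAF9B (red) and RNA POL2 (blue) peaks by distance in kb from the 5′ end of each locus along its strand, linear between -2 and 2 kb and logarithmic beyond, with grey bars for the loci and triangle area for the peak score. TAF9B peaks sit at the start of *Ncam1*, *Cntn1*, *Cntn2* and *Dscam*, *L1cam* has one peak 41.1 kb upstream and *Ncam2* has none.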

How the data were processed

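RNA-seq was analysed in 11 poly-A libraries, 1 per condition, and ChIP-seq as TAF9B and RNA POL2 peak lists. The authors mapped reads to RefSeq genes with TopHat and made the deposited FPKM values with Cuffdiff. The authors mapped ChIP reads with Bowtie to mm9, and the score of each deposited peak is from MACS. Versions and options are not given in the sources used here. The columns of the authors' own log2 fold changes and p-values were not used.

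FPKM ratios were computed here without a pseudocount. Fragment counts are not part of the tables, so depth is unknown except for an estimate in 6 libraries, where the lowest values times transcript length pile up at 0.0175 to 0.0325 FPKM kb. A gene entered a comparison when one library of the pair or both exceeded 1 FPKM and was counted past 2-fold. Tables were normalized separately by the authors, and the ES library labelled WT occurs in 2 of them, with values that differ by a median factor of 1.09. Symbols were assigned to 98.6% of loci and transcript lengths to 82.6% from GENCODE (NCBIM37), and 75.1% of 19116 genes start within 100 bp of it. Like-length medians used the 500 nearest genes.

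A peak was at a start site when its midpoint lay within 500 bp of a GENCODE coding start. Named genes are the 9 members, *Taf9b*, the highest and lowest ratio of each other list and the 3 genes closest to each member by Pearson's r. *Ank2*, *Ank3*, *Sptbn4* in spinal column, *Isl1*, *Isl2*, *Mnx1*, *Chat*, *Cadm1*, *Cadm4*, *Dscaml1*, *Adam10* and *Bace1* in spinal column, *Des*, *Myog*, *Ckm* and *Acta1* were named after their values were seen. The same holds for *Ezr*, *Rdx*, *Msn*, *Rbfox3*, *Dcx*, *Syt1*, *Elavl3*, *Snap25* and *Sdk2*. The values of 1 gene are not reported here. The members and lists were chosen with earlier results of these data known. The counting was tested on simulated data. Python 3.11.15, numpy 2.4.6, pandas 2.3.3 and matplotlib 3.10.9 were used.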

Additional observations from a re-analysis of the deposited data

Results flagged for a closer look

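*Cntn2* moved in opposite directions between comparisons of the same labels. Its log2 ratio, library labelled KO over WT, was 2.38 at EB day 4 and -5.22 at EB day 6, and it was -1.96 in newborn spinal column. Each ratio comes from 1 library per label, so the difference between days was not tested. At day 4 the levels behind it were 0.213 and 1.11 FPKM, near the 1 FPKM limit.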

How the results depend on the processing

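No paired analysis within a condition was possible because each condition has 1 library, and no library could be left out. The 5 steps with both labels are different conditions and were not used as replicates. Of 84 alternative counts of members, 69 were within 1.5 times the value given and 15 were not. With no limit on low values, 1 member was lower at day 2, 3 were higher at day 4 and 4 were higher at day 6 over ES cells in the libraries labelled KO. With 1 FPKM added, or above 1 FPKM in both libraries, 0 were higher at day 4. Above 1 FPKM in both, 1 was lower at day 6, 2 were higher in spinal cord over ES cells and 2 at day 6 over ES cells labelled WT, since fewer genes remain. Minus like-length medians, 4 were lower in spinal column. RNA POL2 peaks within 5 kb of a start gave 5 members, and peaks with a score above the median gave 0 at the start and 1 inside the locus.

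An alternative chosen after seeing the data subtracted the median ratio of the general neuron genes. It left 1 member lower and 4 higher at day 6 and 1 lower in spinal column. Of 180 single ratios under all alternatives, 6 of members counted as different turned direction, each under this one. At day 6 these were *L1cam* (0.86), *Nfasc* (1.30), *Nrcam* (1.84), *Ncam1* (1.34) and *Cntn1* (1.97), and in spinal column *Nrcam* (0.07). A further 4 not counted as different turned, *Chl1* (3.92), *Ncam2* (3.04) and *Dscam* (2.64) at day 6 under this alternative, all below 1 FPKM, and *L1cam* (-0.09) at day 6 over ES cells labelled KO when centred on the median of all genes. The cause was not tested.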

Other observations

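Polysialic acid on NCAM1 is added by the enzymes encoded by *St8sia2* and *St8sia4*. *St8sia2* had 3.93 FPKM under the WT label and 1.28 FPKM under the KO label at day 6, and at 10.7 and 3.44 FPKM in spinal column. *St8sia4* was at 0.302 and 0.152 FPKM at day 6 and at 3.17 and 3.21 FPKM in spinal column. Of the sheddases that cut L1CAM and its relatives, *Adam10* was at 23 and 17.2 FPKM at day 6 and 16.3 and 16.1 FPKM in spinal column, and *Bace1* at 6.24 and 8.59 FPKM and 18.9 and 13.5 FPKM. Of these 5 enzymes, with *Adam17*, *St8sia2* was the only one more than 2-fold lower in either pair. The share of all genes lower by that much was 9.93% at day 6 and 8.54% in spinal column. *St8sia4* was under 1 FPKM in both libraries at day 6 and could not be counted there. Against genes of like length in spinal column, 1 of the 5 was below, and by more than 2-fold.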
